A study of Xerophyta schlechteri with 51 samples.

Results

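Xerophyta schlechteri is a resurrection plant, and in its leaf blades 230 transcripts stood at their highest in non-senescent tissue (NST) after rewatering, at 4 or more times any level that NST showed while the leaf was hydrated or drying. They are 230 of the 20783 gene IDs that occur once in the deposited table (1.11%). They were chosen by measured levels in FPKM, the fragments per kilobase of a transcript relative to all fragments of its library. With 1 added to each mean of 3 libraries, rehydrated NST had to reach 10, to be at least 4 times the highest of the 5 earlier NST groups, and to be no lower than rehydrated pre-senescent tissue (PST). Dry NST could not lie below full turgor by more than 8-fold, and senescent tissue (ST) at <10% water content had to stay under 8 times NST at that stage. The high level in rehydrated NST is therefore the choice itself and is given as a description.

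There were 51 libraries, 3 for each of 17 combinations of a senescence state (NST, PST or ST) and 1 of 6 stages. Leaves were taken fully hydrated (full turgor), at 75%, 55%, 35% and <10% of that water (relative water content, RWC) and 48 h after rewatering. The RWC that names a stage is that of NST, PST was not sampled at full turgor, and the labels state that water content varied between samples after rewatering. No transgene, mutant or other agent is named for any group.

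Resurrection plants survive the loss of nearly all cell water and resume metabolism when water returns. Xerophyta species are poikilochlorophyllous. They take down chlorophyll and thylakoid membranes while drying and must rebuild them on rewatering before photosynthesis resumes. Parts of a leaf that enter senescence during drying do not regain function. Gene names are not paired with the IDs in the table, so roles of the members cannot be given, and the labelled tissues were not checked against marker genes.

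The 3 libraries of rehydrated NST did not contribute alike. Libraries 0 and 1 differed by an SD of 0.401 on the log2 scale over abundant entries, the closest of the 51 pairs of libraries within groups, while library 2 differed from them by 0.892 and 0.887. The absolute depth is unknown. Relative depth was estimated from the steps between low values over 5265 low entries. By this estimate, 1 FPKM in libraries 0 and 1 stood for 0.667 of the fragments it stood for in library 2. If the estimate holds, low values are less precise in libraries 0 and 1. Library 2 was the lowest of the 3 for 208 of the 230 members. The share of all entries lowest in it was not counted, so nothing about the members is read from this. The part of these library differences in the results was not tested. Many results are therefore given by library, but ratios to rehydrated NST and their medians use the mean of its 3 libraries.

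In rehydrated NST the members together made up 17.1%, 17.9% and 16.5% of the summed FPKM of libraries 0, 1 and 2. At full turgor they had made up 2.88%, 1.74% and 2.35%, and in the dry leaf (<10% RWC) 0.536%, 0.52% and 0.738%. These members thus held a similar and large share of the FPKM signal in each of the 3 recovering libraries, library 2 included. A few very abundant transcripts carried most of it. The mean in rehydrated NST ran from 9.06 to 18990 FPKM with a median of 40.2, and 25 members had a mean of at least 1000 FPKM.

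**Figure D1:**
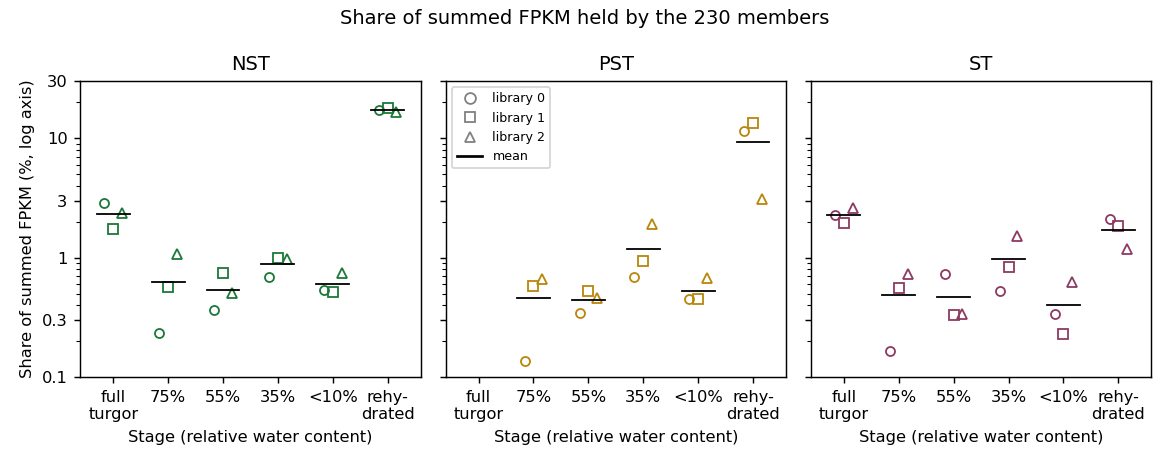
Share of the summed FPKM of each library held by the 230 members (percent, log axis) by stage, in NST, PST and ST. Each symbol is 1 library and each line is the mean of 3. Rehydrated NST lies between 16.5% and 17.9%, rehydrated PST between 3.09% and 13.4%, and rehydrated ST between 1.19% and 2.09%.

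The most abundant member was Xvis03_203121. It stood at 19427, 23203 and 14340 FPKM in the libraries of rehydrated NST, and at 2850, 1316 and 1438 at full turgor. Its rehydrated PST libraries read 8146, 9487 and 2323 FPKM, and its rehydrated ST libraries 1999, 1401 and 689. Every library of rehydrated NST lay above every library of the other groups just given, and rehydrated ST overlapped NST at full turgor.

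Next came Xvis03_225065, at 14764, 16995 and 15950 FPKM in rehydrated NST. Full turgor gave 240, 182 and 244 FPKM, and the dry NST libraries 114, 194 and 174. All of its earlier NST libraries lay between 114 and 542 FPKM, so it was never near its rehydrated NST mean of 15903 ± 1116 FPKM (SD, n = 3) before.

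Measured against earlier NST, Xvis03_215483 had the highest ratio, 589. Its rehydrated NST libraries read 11640, 13194 and 6525 FPKM. At full turgor it read 3.85, 1.14 and 3.24 FPKM, and at 35% RWC, its highest earlier stage, 9.69, 9.62 and 30.9. This transcript went from among the scarce to among the most abundant in the leaf, in all 3 libraries.

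Over the members, the ratio of rehydrated NST to the highest earlier NST group had a median of 7.23 and reached from 4.01 to 589. The highest earlier group was full turgor for 192 of the 230, 35% RWC for 18, 75% RWC for 11, <10% RWC for 7 and 55% RWC for 2. Most members thus had their highest earlier level at full turgor and stood above it after rewatering. That level was often low. The median full turgor mean over all members was 3.4 FPKM, and 41 had no earlier NST group with a mean of 1 FPKM. Just inside the 4-fold limit were Xvis03_203506 (46.0 against 10.7 FPKM, a ratio of 4.01) and Xvis03_221307 (22.5 against 4.83, a ratio of 4.03). Just outside it were Xvis03_219003 (54.5 against 12.9, a ratio of 3.99) and Xvis03_222933 (47.0 against 11.1, a ratio of 3.96).

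For 186 of the 230 members, all 3 rehydrated NST libraries lay above all 15 earlier NST libraries. Over all 18717 entries tested, 7.86% did so, but the choice used these groups and nothing is read from the comparison. Without library 2 the count was 228, and without library 0 or library 1 it was 186 each.

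Taken singly, library 0 reached 4 times the highest earlier NST group for 228 members and library 1 for 228, but library 2 for 70. All 3 libraries reached it for 69 members, exactly 2 for 158, and 1 alone for 3. The members were therefore described in separate classes by how alike the 3 libraries were. In 110 uneven members the highest rehydrated NST library (plus 1) was at least 4 times the lowest, and in 120 even members it was not. Among all entries as abundant in rehydrated NST, 4.39% were uneven, a share from which nothing is read since the choice used the same values. Library 2 was the lowest for 109 of the 110 uneven members, again without a count over all entries.

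**Figure D2:**
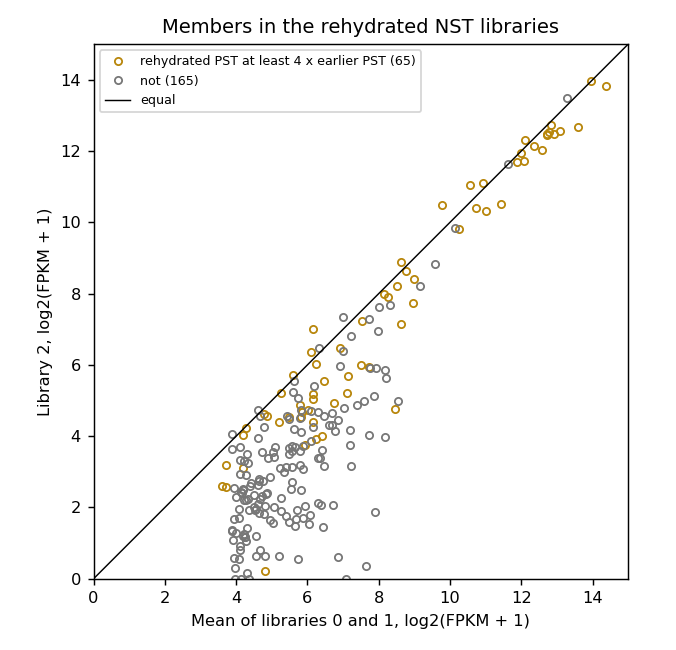
Level of each of the 230 members in library 2 of rehydrated NST against its mean in libraries 0 and 1, both as log2(FPKM + 1), with a line where they are equal. The 65 members in which rehydrated PST reached 4 times every earlier PST group, without a full turgor group, mostly lie near the line, and members far below it are mostly among the other 165.

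The even members held nearly all of the abundance. All 25 members with a rehydrated NST mean of at least 1000 FPKM were even. Together the even members made up 16.2%, 17.1% and 16.4% of the summed FPKM of libraries 0, 1 and 2. The uneven members made up 0.845%, 0.779% and 0.108%. Their highest mean was 258 FPKM, and 36 of the 41 members without an earlier NST mean of 1 FPKM were uneven.

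An extreme of the uneven kind was Xvis03_202861, with the ratio to earlier NST second to that of Xvis03_215483 (149). It read 216.6, 260.5 and 2.68 FPKM in rehydrated NST. Its highest value in any of the other 48 libraries was 0.26 FPKM. In Xvis03_204818 a single library carried the mean, at 400.8 FPKM in library 0 against 0.31 in library 1 and 0.27 in library 2. A further such member, Xvis03_206963, read 268 FPKM in library 0 and is listed at 0 in libraries 1 and 2 (it was chosen after its values were seen). For these members the rehydrated NST mean does not describe its 3 libraries.

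Before recovery, the even members were higher at full turgor than from the first water loss on. Their full turgor means in NST were modest, with a median of 8.07 FPKM. Their median difference from full turgor in NST was -1.43 ± 0.45 on the log2(FPKM + 1) scale at 75% RWC, -1.03 ± 0.14 at 35% RWC and -1.25 ± 0.11 at <10% RWC (SD, n = 3 each). After rewatering it was 3.01, 3.07 and 2.30 in libraries 0, 1 and 2. For the uneven members it was -0.91 ± 0.06 at <10% RWC (SD, n = 3), and then 3.70, 3.77 and 0.81. The median uneven member was thus still above full turgor in library 2, by less than the 4-fold of the choice.

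**Figure D3:**
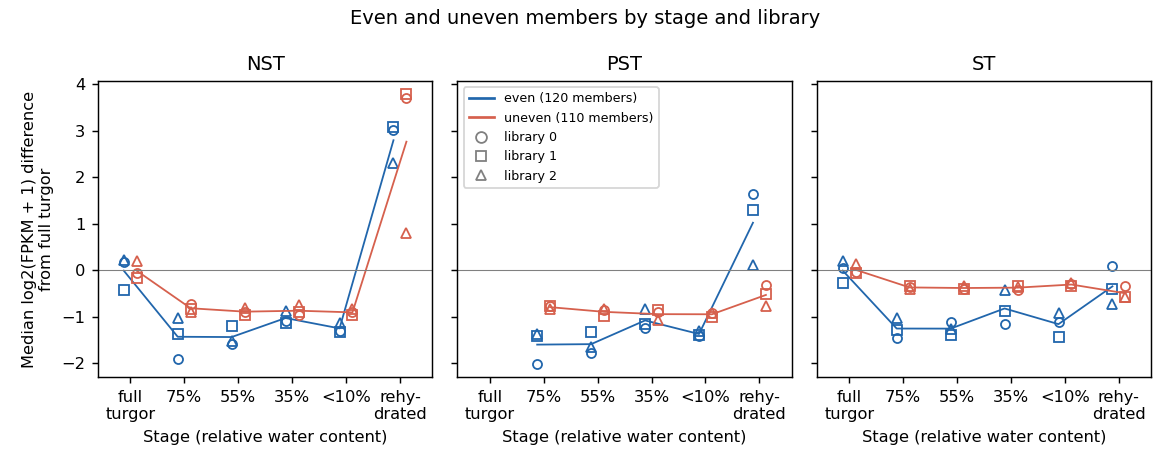
Median over the even (120) and uneven (110) members of the difference from full turgor on the log2(FPKM + 1) scale, by stage. NST and PST are set against NST at full turgor and ST against ST at full turgor. Symbols are libraries and lines join the means of 3. Even members lie above full turgor in all 3 rehydrated PST libraries (1.65, 1.30 and 0.11) and uneven members below it in all 3 (-0.32, -0.51 and -0.76).

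The first water loss of ST was not used to choose the members and can be tested. With limma on log2(FPKM + 1), Benjamini-Hochberg adjustment over all tested entries and a threshold of 0.05, 220 of the 230 members passed the filter on low values (1 FPKM in 3 of the 51 libraries). Since rehydrated NST alone can satisfy it, many of the 220 had little or no value in the groups tested, where a difference can hardly be called. Each comparison was therefore also run on entries with at least 1 FPKM in 3 of the 6 libraries compared, a filter chosen after the values were seen.

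In ST at 75% RWC against ST at full turgor, 0 of these 220 were higher and 73 were lower (15% and 19.9% of all entries tested were higher and lower). At an unadjusted p of 0.05, 97 of the 220 members and 8201 of the 18717 entries differed, which are similar shares. The median difference was -0.79 for the members tested and -0.08 for all entries. With values required in these groups, 0 of 134 members were higher and 65 lower, where 17.2% and 21.2% of entries were. Of those 65, 53 were among 101 even members and 12 among 33 uneven. Without that requirement 53 of 120 even and 20 of 100 uneven members were lower, and the uneven count was 8 after quantile normalization.

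The largest falls were those of Xvis03_225146 and Xvis03_204666. In ST, Xvis03_225146 read 217, 157 and 243 FPKM at full turgor and 3.67, 15.6 and 21.8 at 75% RWC. The groups did not overlap, and the log2 difference was -4.08 ± 0.79 (SE, adjusted p = 8.91e-05, limma). Xvis03_204666 went from 476, 275 and 517 FPKM to 5.18, 44.1 and 58.0, again without overlap (-4.01 ± 0.74, SE, adjusted p = 4.54e-05, limma). In rehydrated NST they read 2378, 3092 and 1467 FPKM (Xvis03_225146) and 1868, 2046 and 2199 FPKM (Xvis03_204666). Library 0 of ST at 75% RWC was the lowest for both and held the smallest member share in its group, 0.167% against 0.56% and 0.733%. The count of members lower was 48 without that library and 47 without library 2 of ST at full turgor.

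At 35% RWC, members in ST were again more often lower than higher. Against full turgor 4 tested members were higher and 63 lower (19.2% and 25.7% of all entries), with a median of -0.62 against -0.13 for all. After quantile normalization these counts were 7 and 38, while those of all entries went from 3586 higher and 4812 lower to 4553 and 4067. With values required in these groups, 4 of 133 members were higher and 51 lower (22.1% and 27.6% of entries). The share of members lower was thus near that of entries in general as deposited and below it after quantile normalization. It was above that of entries only with values required in these groups. The share of members higher was below that of entries in each case. The largest falls were in Xvis03_204666, now at 27.4, 39.2 and 116 FPKM (-3.00 ± 0.74, SE, adjusted p = 0.00112, limma), and Xvis03_222809. That member read 24.4, 10.7 and 20.0 FPKM at full turgor and 0.67, 0.71 and 3.35 at 35% RWC (-2.99 ± 0.69, SE, adjusted p = 0.00055, limma). Neither overlapped with full turgor.

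One of the 4 that were higher in drying ST was Xvis03_215483, the member with the steepest recovery in NST. It read 1.27, 0.34 and 1.15 FPKM in ST at full turgor and 12.2, 4.50 and 60.2 at 35% RWC (3.14 ± 0.90, SE, adjusted p = 0.00457, limma). Library 2 gave the highest of these values, and without it the adjusted p was 0.0641. The other largest rise, Xvis03_210497 (2.45 ± 0.89, SE, adjusted p = 0.0234, limma), did not pass without library 1 of either group. Library 2 of ST at 35% RWC also held the largest member share of its group, 1.53% against 0.53% and 0.839%.

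Rescaling matters for the comparisons with full turgor. Quantile normalization moved the median of all entries by 0.25 for rehydrated ST against full turgor, 0.19 for 35% RWC and 0.12 for 75% RWC. Relative to that median, the members tested were lower by either scaling, by differences that follow as deposited and then after quantile normalization. These were -0.71 and -0.57 for ST at 75% RWC. They were -0.49 and -0.37 for ST at 35% RWC. For rehydrated ST they were -0.30 and -0.19.

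Drying of PST could be followed from 75% RWC, since no PST was taken at full turgor. Between 75% and <10% RWC, 10 tested members were higher and 6 lower (12.6% and 13.1% of all entries), with a median of 0.00 against -0.06 for all. After quantile normalization the counts were 10 and 2. With values required in these groups, 12 of 100 members were higher and 5 lower (16% and 15.5% of entries). The counts among the 220 turned on single libraries. They were 2 higher and 3 lower without library 0 of PST at 75% RWC and 21 higher and 11 lower without its library 2. Leaving out library 1 of that group gave 7 higher and 3 lower, leaving out library 0 of PST at <10% RWC 6 and 3, and leaving out its library 2 gave 4 and 3.

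Of the changes in drying PST, Xvis03_217074 fell from 30.8, 8.80 and 2.07 FPKM to 0.21, 0.34 and 0.29 (-2.95 ± 0.59, SE, adjusted p = 0.000652, limma). The groups did not overlap, and the change passed without each library in turn, but not when the 2 groups were fitted alone (adjusted p = 0.0752, limma). The largest rise, Xvis03_205046 from 0.37, 12.4 and 33.0 to 54.0, 69.7 and 84.5 FPKM, did not pass without library 0 at 75% RWC or in a fit of the 2 groups alone (3.02 ± 0.92, SE, adjusted p = 0.0148 with it, limma). The next largest rise (Xvis03_208337, 2.64, adjusted p = 0.049, limma) and fall (Xvis03_210869, -2.63, adjusted p = 0.0452, limma) passed in 6 of 13 alternative settings each.

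After rewatering, PST stood no higher than NST by mean in any member, as the choice required. The rehydrated PST mean (plus 1) was at a median of 13.5% of that of rehydrated NST, and ran from 0.704% to 96.2%. For even members the median was 33.3% and for uneven members 6.32%. In bulk tissue, fewer cells with a transcript and less of it per cell cannot be told apart. The upper bound of 100% is set by the choice, and 74 members had a rehydrated PST mean under 1 FPKM.

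In 65 members rehydrated PST reached 4 times every earlier PST group, and 60 of these 65 were even. This criterion is easier than the one for NST, since PST has no full turgor group and full turgor was the highest earlier stage of most members in NST. Set against its drying groups alone in the same way, rehydrated ST reached 4-fold in 4 members (Xvis03_215483, Xvis03_215395, Xvis03_222809 and Xvis03_200963), a count made after the values were seen. The 65 members that reached it in PST included 22 of the 25 members with a rehydrated NST mean of at least 1000 FPKM. The 3 abundant members short of 4-fold in rehydrated PST were Xvis03_221799 (2.81-fold), Xvis03_207479 (3.96-fold) and Xvis03_218222 (1.51-fold), named after their values were seen. The mean of rehydrated ST was below that of rehydrated PST for all 65, a class picked for high rehydrated PST. By mean, the order NST, PST and ST held for 205 of the 230 members, and the choice fixed its first step. Every rehydrated PST library lay above every rehydrated ST library for 40 of the 65 and 89 of the 230. Every rehydrated NST library lay above every rehydrated PST library for 37 of the 65 and 181 of the 230. The shares over all entries were not counted, for this order or for reaching 4-fold in rehydrated PST and ST. Nothing is therefore read from the order or from those counts.

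With limma, 106 tested members were called higher and 2 lower in rehydrated PST than in PST at <10% RWC (16.3% and 13.8% of all entries). The median was 1.05 against 0.03 for all. The choice set a ceiling on rehydrated PST, so these counts describe the members and no more is read from them. Of 120 even members tested 93 were called higher and 0 lower, and of 100 uneven members 13 were higher and 2 lower. With values required in these groups, 126 members remained, 88 of them higher and 2 lower (17.5% and 17.2% of entries). These were 79 higher of 97 even members, and 9 higher and 2 lower of 29 uneven members. Without library 2 of rehydrated PST, 98 even and 22 uneven members were higher, without library 0 they were 75 and 4, and without library 1 they were 78 and 9.

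The steepest differences in PST were in Xvis03_215483 and Xvis03_215395. The first read between 3.54 and 5.6 FPKM in dry PST and 3995, 1885 and 694 after rewatering. The second is listed at 0 in all 3 dry PST libraries and read 283, 153 and 39.0 FPKM after rewatering, against 295, 313 and 241 in rehydrated NST. Library 2 of rehydrated PST was the lowest for both, and it was the lowest for 162 members. The share over all entries was not counted here either. Members held 11.5%, 13.4% and 3.09% of the summed FPKM in libraries 0, 1 and 2. By this share, library 2 of rehydrated PST stood apart from libraries 0 and 1.

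At the top of the PST scale stood Xvis03_208917 (96.2% of rehydrated NST) and Xvis03_200362 (94%). Xvis03_208917 read 9.48, 12.6 and 5.11 FPKM in rehydrated NST and 13.6, 5.14 and 7.28 in rehydrated PST. The groups overlapped. Xvis03_200362 read 70.8, 68.6 and 20.2 FPKM in NST and 107, 31.5 and 10.8 in PST, also with overlap. At the other end were the uneven members Xvis03_202861 (0.704%) and Xvis03_204818 (0.959%), whose rehydrated PST libraries were all at or under 0.47 FPKM.

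Rehydrated ST was neither used as a limit nor as a floor, and it can be tested against ST at full turgor and at 35% RWC. Against full turgor, 14 tested members rose and 58 fell, and 148 passed in neither direction (22.1% and 29.8% of all entries were higher and lower). The median was -0.50 against -0.20 for all. After quantile normalization the members' counts were 16 and 27, and those of all entries went from 4136 higher and 5585 lower to 4872 and 4346. Without library 2 of ST at full turgor, 9 members were higher and 35 lower. By the filter on these groups alone, 14 of 139 members were higher and 46 lower (25.6% and 31.7% of entries). The share of members lower was thus near that of entries in general by either filter, and below it after quantile normalization. The share of members higher was below that of entries in each case.

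Of the 120 even members tested 13 rose and 30 fell, and of the 100 uneven 1 rose and 28 fell. After quantile normalization the counts were 13 and 18 for even and 3 and 9 for uneven members. By the filter on these groups alone they were 13 and 28 of 105 even, and 1 and 18 of 34 uneven members. The even median by library was 0.09, -0.40 and -0.73, and the uneven median -0.35, -0.56 and -0.58. Members shared with PST had 8 that rose and 10 that fell of 65, with a median of -0.01.

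Xvis03_215483 rose most in rehydrated ST. It read 274, 104 and 21.5 FPKM against 1.27, 0.34 and 1.15 at full turgor (5.53 ± 0.90, SE, adjusted p = 3.63e-06, limma). The groups were far apart, yet the mean (plus 1) was 1.28% of that in rehydrated NST. It was the one member to reach 4 times every earlier ST group. Xvis03_218469 rose from 5.04, 6.00 and 7.79 to 59.1, 43.8 and 38.9 FPKM (2.73 ± 0.60, SE, adjusted p = 0.000223, limma).

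The largest falls in rehydrated ST against full turgor were in Xvis03_202686 and Xvis03_217074. Xvis03_202686 read 10.1, 8.32 and 11.1 FPKM at full turgor and 0.51, 0.72 and 1.05 after rewatering (-2.63 ± 0.49, SE, adjusted p = 2.52e-05, limma). Its rehydrated NST libraries read 95.9, 97.8 and 18.9 FPKM. Xvis03_217074 went from 5.35, 4.63 and 6.62 to 0.00, 0.15 and 0.07 FPKM in ST (-2.60 ± 0.59, SE, adjusted p = 0.000333, limma). In rehydrated NST it read 43.3, 52.9 and 46.0 FPKM, and in rehydrated PST 0.55, 2.54 and 0.10. This even member was therefore high in the 3 libraries of rehydrated NST and close to 0 in those of both other rehydrated tissues.

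**Figure D4:**
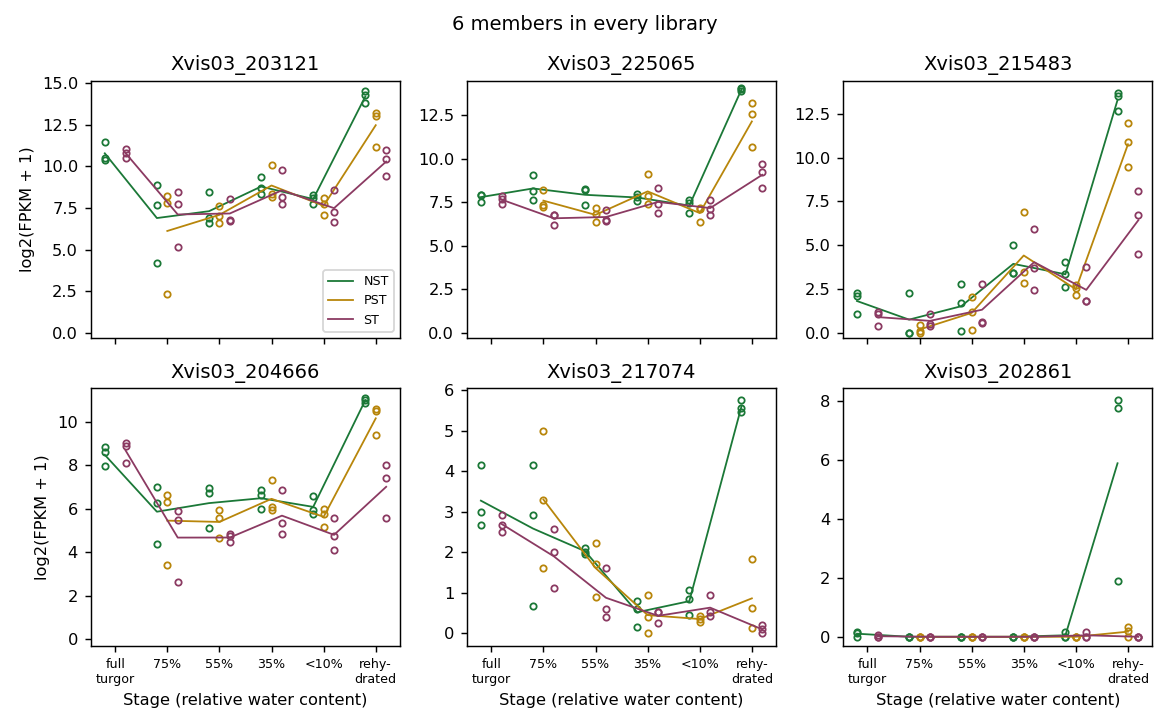
Levels of 6 members in every library as log2(FPKM + 1), by stage, in NST, PST and ST. Points are libraries and lines join the means of 3. Xvis03_203121, Xvis03_225065, Xvis03_215483 and Xvis03_204666 are raised in rehydrated PST as well as NST. They are also higher in rehydrated ST than in ST at <10% RWC, Xvis03_215483 by the most (3.98 on the log2 scale). Xvis03_217074 is raised in rehydrated NST, and Xvis03_202861 in libraries 0 and 1 of rehydrated NST (216.6 and 260.5 FPKM) far above library 2 (2.68 FPKM).

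Against ST at 35% RWC, rehydrated ST differed in few members. By limma 2 were higher and 0 lower (0.812% and 0.652% of all entries). At an unadjusted p of 0.05, 26 of 220 members and 2957 of 18717 entries differed. Among entries with values in these groups, 2 of 102 members were higher and 0 lower (1.36% and 1.05% of entries). There 20 members and 2663 of 14621 entries differed at an unadjusted p of 0.05. Those called were Xvis03_200963, from 0.11, 0.27 and 3.82 to 17.9, 7.09 and 4.18 FPKM (2.29 ± 0.58, SE, adjusted p = 0.0355), and Xvis03_208917, from 0.51, 0.31 and 1.06 to 5.63, 1.35 and 3.25 FPKM (1.34 ± 0.29, SE, adjusted p = 0.0133). Neither pair of groups overlapped. Neither member passed when the 2 groups were fitted alone. The count was 0 without library 0 of rehydrated ST or without library 0 or 1 of ST at 35% RWC, 1 without library 1 of rehydrated ST, and 4 without its library 2.

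Against ST at <10% RWC, which the choice capped, 35 tested members were called higher and 15 lower in rehydrated ST (13.8% and 16.2% of all entries), with a median of 0.05 against 0.00 for all. Quantile normalization gave 36 and 9. All 35 called higher were even and 0 of 100 uneven members were, while 5 even and 10 uneven members were lower. Most uneven members had too little in these groups to be called, with median levels of 0.22 FPKM in dry and 0.085 FPKM in rehydrated ST. Under the filter on these groups alone 106 members remained, 36 higher and 11 lower (17.5% and 19.3% of entries). These were 36 higher and 4 lower of 82 even, and 0 higher and 7 lower of 24 uneven members. No reading is drawn from the totals, which also moved with single libraries. They were 16 higher and 14 lower without library 0 of rehydrated ST, 25 and 7 without its library 1, 18 and 5 without library 0 of dry ST, and 18 and 15 without library 1 of dry ST.

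The largest difference upward was again in Xvis03_215483 (3.98 on the log2 scale), with Xvis03_200981 next. Xvis03_200981 read 13.1, 5.55 and 37.8 FPKM in dry ST and 368, 269 and 99.0 after rewatering, and in rehydrated NST 5038, 5358 and 4526. The largest differences downward were in the uneven members Xvis03_218544 and Xvis03_208298. Xvis03_218544 read 295, 44.4 and 61.4 FPKM in dry ST and 17.6, 4.58 and 6.75 after rewatering. Xvis03_208298 read 29.4, 24.5 and 26.1 FPKM and then 4.64, 0.74 and 2.54. Both were also the members called lower in PST on rewatering, calls that were lost in 6 and 3 of 13 alternative settings. Their rehydrated NST libraries read 194, 227 and 15.5 FPKM for Xvis03_218544 and 212, 174 and 31.0 for Xvis03_208298.

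**Figure D5:**
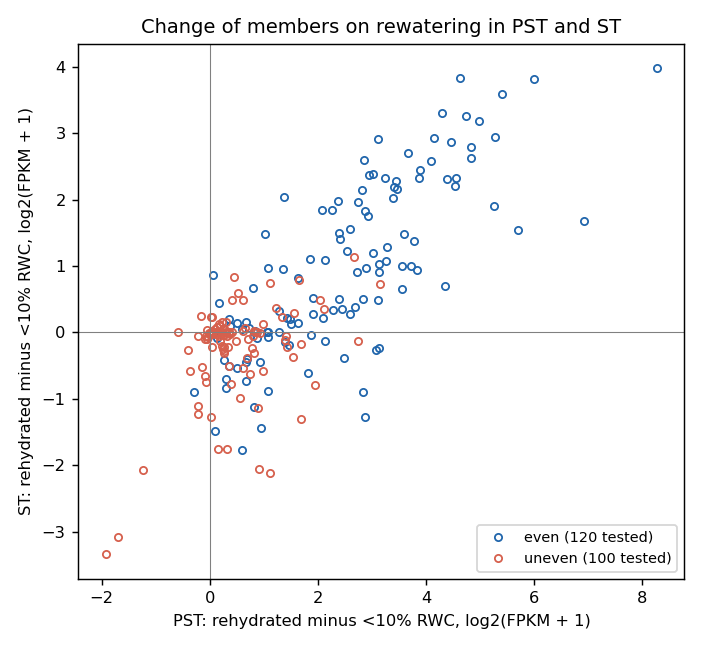
Difference between rehydrated tissue and tissue at <10% RWC on the log2(FPKM + 1) scale, in PST (horizontal) and ST (vertical), for the 120 even and 100 uneven members that passed the filter. Even members spread to the upper right, with medians of 2.46 in PST and 0.89 in ST. Uneven members gather near 0, with medians of 0.31 and -0.05, and 29 and 24 of them had at least 1 FPKM in 3 of the 6 libraries compared in PST and in ST.

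The members also varied together to some degree in groups that the choice did not use. Over the 27 libraries of the 9 groups that the choice did not use, the median Pearson correlation between pairs of members was 0.26 (228 members with any variation), against 0 over all tested entries. It was 0.34 among even members, 0.23 among uneven members and 0.48 among those shared with PST. That last class was itself cut on levels in the drying PST groups, which are among these 9 groups, so its value is not independent of its choice. The 9 groups are PST and ST at stages that the choice used in NST, and these pairs share their libraries, stages and scaling. The values are therefore a description and no test.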

How the data were processed

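Leaf blade RNA was sequenced in 51 samples of 17 groups, taken from the labels. The authors deposited 1 table of FPKM values, rounded to 2 decimals, with 21815 entries and 21282 IDs. The file header names no unit, and FPKM is inferred from the Cuffdiff processing. Of the IDs, 499 are repeated. Per the submitters' processing notes, the tools were Bowtie2, TopHat and Cuffdiff, run against the species' genome (per the series design text). For versions and settings, nothing is given in the sources used here. The Cuffdiff scaling decides how abundant transcripts affect the others in a library.

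Members were chosen by the stated rule on IDs occurring once. The members, classes and tests were chosen with earlier results of these data known. Entries with at least 1 FPKM in at least 3 libraries (18717) were tested with limma 3.58.1 in R 4.3.3 on log2(FPKM + 1), which understates changes of low transcripts. Each group had 1 mean in a fit of all 51 libraries with a variance trend (34 residual degrees of freedom), two-sided, with Benjamini-Hochberg adjustment within a comparison. The fit was tested on simulated data. Of the 7 comparisons, 5 use groups outside the rule. Members named are the 2 extremes of each measure and, per comparison, the 2 largest rises and falls past the threshold, apart from those said to be chosen later. Numbers 0, 1 and 2 come from the column names. No label says which samples were separate plants, so p-values measure the spread between samples, which may be technical. Alternatives were other pseudocounts, filters, scaling, fits and leaving out libraries, and, added after the data were seen, a filter on the compared groups alone.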

Additional observations from a re-analysis of the deposited data

How the results depend on the processing

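The number of members was 338 at 3-fold, 148 at 6-fold, 163 with a minimum of 20, 168 with a pseudocount of 0.1 (154 of the 230), 305 with medians (222 of the 230) and 237 with repeated IDs kept. Without single rehydrated NST libraries it ran from 182 to 323, the latter without library 2, and the non-overlap count from 186 to 228. Leaving out single libraries, the members called (higher plus lower) ranged from 44 to 67 for rehydrated ST against full turgor, 0 to 4 against 35% RWC, 48 to 60 for ST at 35% RWC and 47 to 69 at 75% RWC against full turgor, 5 to 32 for drying PST, 80 to 121 for rehydrated against dry PST and 23 to 56 for rehydrated against dry ST. In drying PST the direction of the totals turned without library 0 at 75% RWC, to 5 calls (2 higher, 3 lower). Quantile normalization gave 43 calls for rehydrated ST against full turgor. Fitting the 2 groups alone gave 5 for drying PST and 0 for rehydrated ST against 35% RWC, where 0 of all entries passed. In that last fit 32 of 220 members and 2940 of 18717 entries had an unadjusted p under 0.05. The cause of these shifts was not tested. Of all alternatives for these counts, 82 stayed within 1.5 times, 20 did not and 1 turned direction. For single members named, 272 kept their call and 40 lost it, with none turning direction.

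Replicate numbers did not pair the libraries between stages. In none of the 7 comparisons did all 3 same-number correlations exceed 0.1, and the lowest was -0.227. With the number as a replicate block, 77, 2, 67 and 77 members were called for rehydrated ST against full turgor, against 35% RWC, and for ST at 35% and at 75% RWC against full turgor, 17 for drying PST, and 110 and 54 for rehydrated against dry PST and ST. Depth is unknown, so no interval for counting error can be given, and the 10 members under the filter were not tested.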
